A study of Mus musculus with 6 samples.

Results

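The genes described here are 10 that encode proteins of the presynaptic active zone: Rims1, Rims2, Erc1, Erc2, Bsn, Pclo, Unc13a, Unc13b, Unc13c and Ppfia2. They were chosen by name, with earlier results of these data known, out of 21755 protein-coding genes on chromosomes 1 to 19 and X. All 10 had enough reads to be tested. The measurement is BLISS, in which free ends of double-strand breaks in fixed nuclei are joined to an adaptor, copied and sequenced, so that the first base of each read marks a break end. Neurons sorted from the mouse forebrain gave 6 libraries, 2 each in groups named Step2, Step1 and Con. All 6, Con included, carry the genotype CK-p25 and 2 weeks of induction by taking doxycycline out of the diet. In this mouse p25, an activator of the kinase Cdk5, is switched on in forebrain neurons through the Camk2a promoter, so neurons in which that promoter is silent are not expected to make it. The labels give neither age nor sort marker, do not say what sets Step2, Step1 and Con apart, and leave unsaid if the 2 replicates of a group came from different animals. A p-value here speaks only of how far these libraries spread, and that spread may be technical. Because the assay reads DNA ends and not RNA, the neuronal label could not be checked against marker genes.

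The active zone is the patch of presynaptic membrane where synaptic vesicles dock, are primed and fuse. RIM proteins, made from Rims1 and Rims2, bind Rab3 on vesicles, recruit calcium channels and hold Munc13 proteins in place. Munc13 proteins, made from the Unc13 genes, open syntaxin so that SNARE complexes can form. Proteins of the ELKS family, from Erc1 and Erc2, and liprin-α2, from Ppfia2, are scaffolds, and Bassoon and Piccolo, from Bsn and Pclo, are very large proteins that tie vesicles to the site. None of these roles was measured here; the data place break ends within the DNA of the genes.

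Depth was 1526487 and 1480461 reads in the Step2 libraries, 2403238 and 2043098 in the Step1 libraries, and 2300995 and 2273508 in the Con libraries. The 10 gene bodies held 17366 reads in all, at 14336 distinct positions and strands counted library by library. Levels are given as CPM, counts per 1e6 reads of a library outside piled-up windows, so they say which share of the break ends lay in a gene and say nothing of the number of breaks per cell. The genes differ widely in size. Erc2 spans 856 kb on the plus strand (mm10, chr14:27622428-28478537) and held 4052 reads over the 6 libraries, the most of the 10. Unc13a spans 47.3 kb on the minus strand (chr8:71624417-71671757) and held 245, the fewest. Between them lie Rims1 (chr1:22286251-22805994, minus) with 2388 reads, Rims2 (chr15:39198261-39684372, plus) with 2281, Ppfia2 (chr10:106470339-106935952, plus) with 2152 and Unc13c (chr9:73479422-73968966, minus) with 2119. Pclo (chr5:14514918-14863459, plus) held 1547 reads, Erc1 (chr6:119570796-119848167, minus) 1323, Unc13b (chr4:43058953-43264871, plus) 897 and Bsn (chr9:108096022-108190384, minus) 362. The 95% intervals of shares given below cover counting error only.

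Some of these reads stacked at single bases, and the sequences around the largest stacks show where. A position here is a base and strand at which reads began, and the 3 with the most reads over all libraries were taken by rule. The largest held 33 reads in an intron of Erc2, 198 kb from the gene start, and all 33 came from Con replicate 2. Another intronic position of Erc2, 460.5 kb from the start, held 27 reads, 26 of them from Con replicate 1. The third held 23 reads in an intron of Rims2, all from Con replicate 2. One more, in a coding exon of Unc13a, was added after its values were seen, because its 18 reads, all from Step1 replicate 2, were 7.35% of all reads of that short gene. Each sequence below is mm10 on the strand of the reads, 5′ to 3′, with the first 10 read bases, which start at the break end, in capitals.
Erc2, chr14:27820353-27820413, minus: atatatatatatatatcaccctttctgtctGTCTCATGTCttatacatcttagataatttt
Erc2, chr14:28082900-28082960, minus: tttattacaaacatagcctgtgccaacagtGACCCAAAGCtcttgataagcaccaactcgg
Rims2, chr15:39397507-39397567, plus: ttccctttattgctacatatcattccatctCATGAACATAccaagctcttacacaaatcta
Unc13a, chr8:71651117-71651177, plus: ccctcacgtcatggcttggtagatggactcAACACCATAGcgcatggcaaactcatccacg
The 61 bases around the first Erc2 position had a GC content of 24.6% and 38 of them were masked as repeat in the reference, whereas the stretch around the Unc13a position had a GC content of 54.1%. Both sequencing runs contributed reads to each of the 4 positions, from 9 and 9 in Unc13a to 21 and 12 at the largest.

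In all, 15 positions in the 10 genes held at least 10 reads, and together they made up 255 reads, or 1.47% of the reads in these genes. Of the 15, 11 were seen in 1 library only, and 14 drew at least 90% of their reads from a single library. The library with the most reads was Con replicate 2 at 6 of them, Con replicate 1 at 3, Step2 replicate 2 at 3, Step1 replicate 2 at 2 and Step2 replicate 1 at 1. Over all positions, 14040 were seen in 1 library, 139 in 2 and 6 in 3. A library had only 1740 to 2958 distinct ends in the 3.76 Mb of known sequence of these genes, so little sharing could be seen. The sharing that ends placed at random would give was not computed. Reads at positions that held more than 1 read of the same library were 24.7% and 30.3% of the Step2 reads in these genes, 18.2% and 23.6% of the Step1 reads, and 31.4% and 39.5% of the Con reads. The Con libraries were thus higher than all 4 others on this measure. For this reason each comparison below was also made with 1 read per position and strand.

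**Figure D1:**
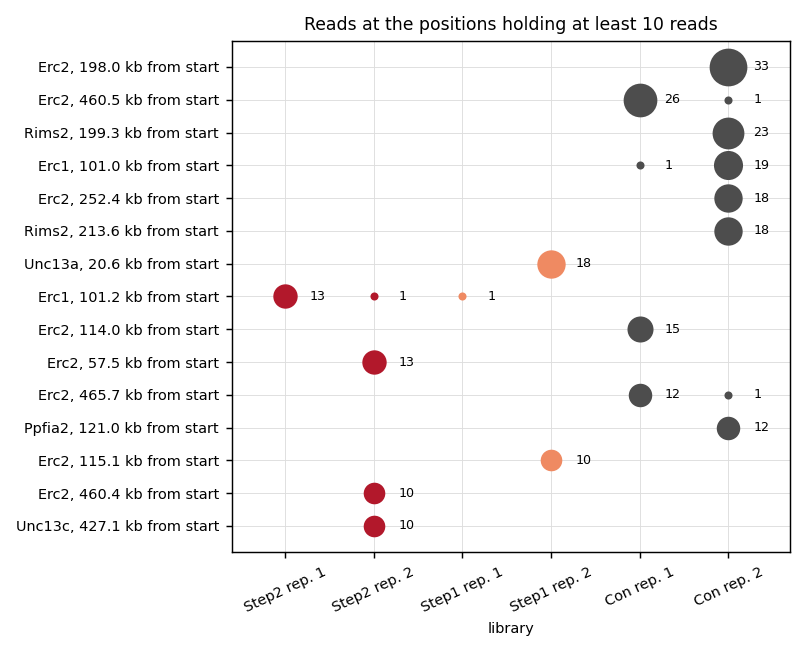
Reads per library (columns, 6 libraries) at each of the 15 positions holding at least 10 reads (rows, named by gene and distance from the gene start in kb); the area of a circle and the number beside it give the reads. Each row is dominated by a single library, with 33 reads of Con replicate 2 at the top.

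Reads in these genes followed their length. The Pearson correlation of reads with known bases was 0.998 over the 10 genes, which share all 6 libraries. Per kb of known sequence the genome averaged 0.391 CPM, and the median of the 13811 genes tested was 0.393 CPM per kb. Ordered by density, Unc13a came first with 0.451 ± 0.124 CPM per kb (SD over the 6 libraries here and in the rest of this order), then Rims1 with 0.426 ± 0.0273. Erc1 (0.413 ± 0.0279), Erc2 (0.410 ± 0.0321), Rims2 (0.405 ± 0.0389) and Ppfia2 (0.403 ± 0.0220) followed within a narrow band. Pclo had 0.383 ± 0.0325 CPM per kb, Unc13b 0.379 ± 0.0210, Unc13c 0.378 ± 0.0146 and Bsn 0.332 ± 0.0367. Neighbours in this order differed by less than the larger of their SDs, except Unc13c and Bsn, whose gap was 0.0458 CPM per kb. Relative to the genome mean the densities ran from 0.849 times in Bsn to 1.16 times in Unc13a. The 2 shortest genes, which also have the highest GC content (54.2% in Unc13a and 50.7% in Bsn), thus stood at opposite ends. The stack of 18 reads in Step1 replicate 2 raised the density of Unc13a. Without positions of at least 10 reads Unc13a had 0.419 CPM per kb, below Rims1 at 0.426. With 1 read per position it stayed just above Rims1, at 0.432 beside 0.429. The correlation of density with GC content over the 10 genes was 0.00363.

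**Figure D2:**
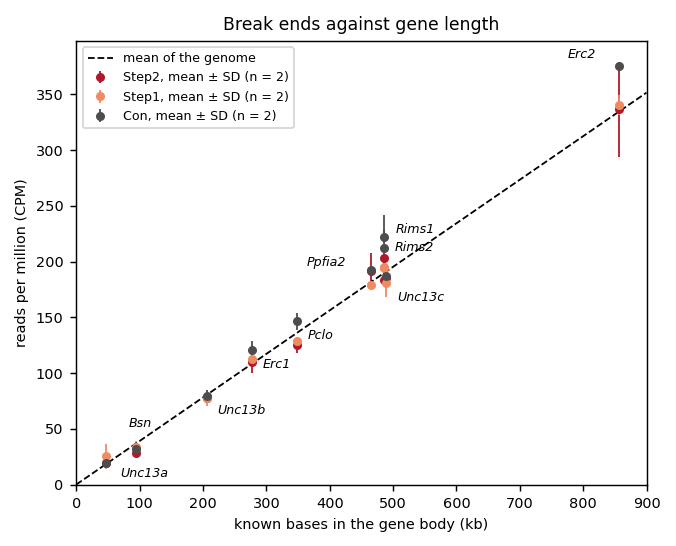
CPM of each gene body (vertical, mean ± SD of the 2 libraries of a group) against its known bases (horizontal, kb), with Step2, Step1 and Con as separate points; the dashed line is the genome mean of 0.391 CPM per kb. The 10 genes lie along the line, from Unc13a at the lower left to Erc2 at the upper right.

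Taken as a sum, the 10 genes held a smaller share of the break ends in both Step2 and Step1 libraries than in Con libraries. Their summed level was 1400 and 1523 CPM in Step2, 1442 and 1495 CPM in Step1, and 1569 and 1610 CPM in Con. The Con libraries did not overlap with those of either other group, while the Step2 and Step1 libraries overlapped each other. The means were 1462 ± 86.5 CPM in Step2, 1469 ± 36.8 CPM in Step1 and 1589 ± 29.1 CPM in Con (SD, n = 2 each), a difference of -8.10% for Step2 against Con and of -7.60% for Step1 against Con. An exact two-sided permutation test gave p = 0.33 for each of these differences, the smallest p that 2 libraries against 2 can give, so the design could not reach 0.05. Step2 and Step1 differed by -0.01 on the log2 scale (exact permutation p = 1). As shares of a library, the sums were 0.140% and 0.152% in Step2, 0.144% and 0.149% in Step1, and 0.157% and 0.161% in Con, beside the 0.147% of the genome that the 10 genes span.

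The Step2 against Con difference in the sum was -0.12 on the log2 scale in both sequencing runs together, -0.10 in the first run and -0.14 in the second. The Step1 against Con difference was -0.11 with both runs, -0.12 in the first and -0.11 in the second. With 1 read per position the differences were -0.14 and -0.12. A single library mattered for Step2: without Step2 replicate 1 the Step2 against Con difference was -0.06. Both comparisons use the same 2 Con libraries, so they are not independent of each other. With scaling by the median of ratios over genes in place of library size, the differences were -0.07 for Step2 and -0.08 for Step1.

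For single genes, reads were fitted with limma (voom) over all tested genes, and a gene was called where the adjusted p was under 0.05. None of the 10 was called in any comparison. Across all tested genes 0.0941% were called for Step2 against Con, 0.123% for Step1 against Con and 0.0434% for Step2 against Step1, so a count of 0 among 10 genes is what that background gives. With 1 read per position none of the 10 was called either, against 0.126%, 0.118% and 0.0315% of all genes in the same order of comparisons. At an unadjusted p under 0.05, 1 of the 10 passed for Step2 against Con (Erc2), 2 for Step1 against Con (Erc2 and Rims1) and 0 for Step2 against Step1. Among all 13811 genes 1073, 978 and 472 passed that mark, or 7.77%, 7.08% and 3.42%. Of genes over 300 kb, 23.1%, 20.6% and 4.59% did. With 1 read per position 2 of the 10 passed for Step2 against Con (Erc2 and Pclo). For Step1 against Con 3 did (Erc2, Pclo and Rims1), and 0 did for Step2 against Step1. In that setting 7.97%, 8.23% and 4.89% of all genes passed, and 27.3%, 23.3% and 7.76% of genes over 300 kb.

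In sign, the fitted values of the 10 genes leaned below 0. For Step2 against Con 9 of 10 were below 0 with a median log2 fold change of -0.13, beside 54.0% of all tested genes and a median of -0.04. For Step1 against Con 8 of 10 were below 0 with a median of -0.10, beside 54.7% and -0.04. For Step2 against Step1 it was 6 of 10 with a median of -0.03, beside 50.2% and 0.00. Long genes as a class leaned the same way: of 567 tested genes over 300 kb, to which 6 of the 10 belong, 422 were below 0 for Step2 against Con and 418 for Step1 against Con, with medians of -0.08 and -0.07. The part of gene length in the values of the 10 genes was not tested.

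Counting only genes whose libraries did not overlap, 5 of the 10 had both Step2 libraries below both Con libraries, where 21.7% of all genes did, and 0 had both above, where 15.2% did. Of genes over 300 kb, 42.3% had both Step2 libraries below both Con libraries. For Step1 against Con 5 of the 10 lay below without overlap, beside 21.3% of all genes and 40.0% of those over 300 kb, and 0 lay above, beside 15.4% of all genes. For Step2 against Step1 2 of the 10 lay below and 0 above, beside 17.9% and 16.1% of all genes. Of genes over 300 kb, 7.41% lay above Con without overlap for Step2 and 8.64% for Step1. The shares of the 10 genes against Con were thus nearer to those of long genes than to those of all genes. Not all of the 10 are over 300 kb, and Bsn, which spans 94.4 kb, is among those with Step2 below Con. This is a description over few genes with no test of its own.

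**Figure D3:**
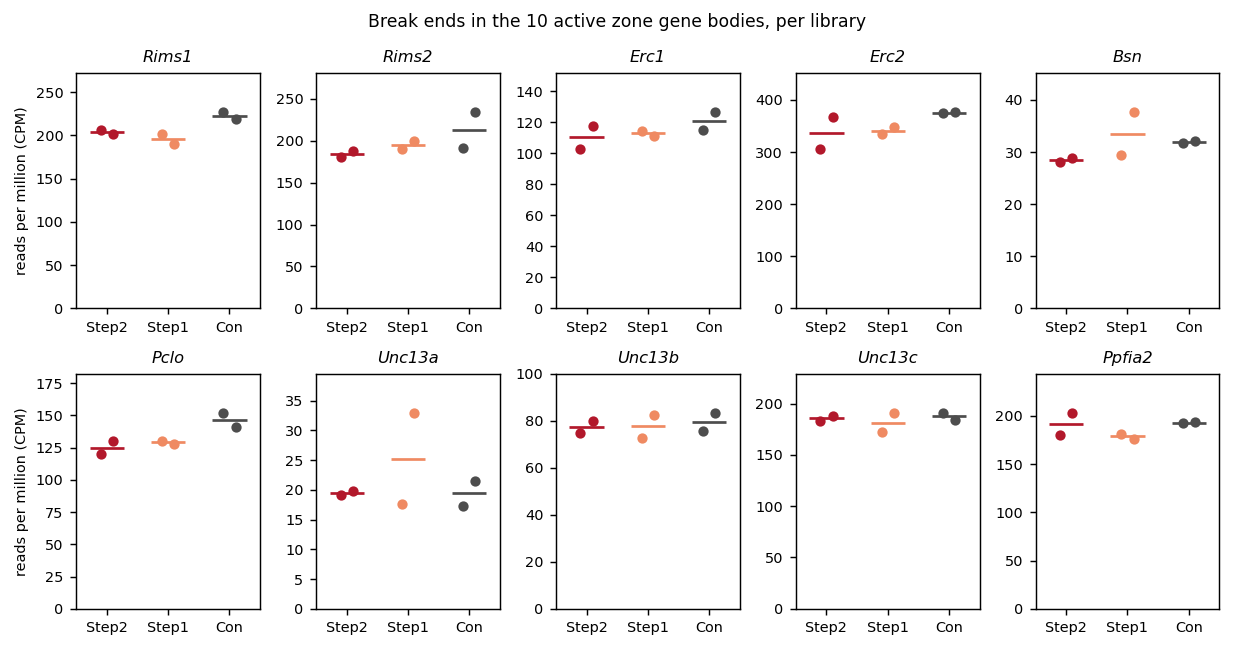
CPM of each of the 10 gene bodies (1 panel a gene, vertical axes from 0 and scaled per gene) in Step2, Step1 and Con; points are libraries and bars are means of 2. Con lies above both other groups in Rims1, Erc2 and Pclo, and the Step1 replicates of Unc13a lie far apart at 17.5 and 33.0 CPM.

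The RIM genes Rims1 and Rims2 encode the organisers of the release site. Rims1 held 300 and 285 reads in Step2, 459 and 368 in Step1, and 499 and 477 in Con. As levels these were 206 and 201 CPM in Step2, 201 and 189.5 CPM in Step1, and 226 and 218 CPM in Con. Both Con libraries lay above the other 4. The log2 fold change was -0.13 ± 0.09 for Step2 against Con (SE, limma adjusted p = 0.783) and -0.18 ± 0.08 for Step1 against Con (adjusted p = 0.678), and the 95% interval of the second, -0.35 to -0.02, did not reach 0. Rims2 held 263 and 266 reads in Step2, 433 and 387 in Step1, and 422 and 510 in Con. Its levels were 180.3 and 188 CPM in Step2, 189.8 and 199 CPM in Step1, and 191 and 234 CPM in Con. Step2 lay below Con, and Step1 overlapped Con because the Con replicates were far apart. Rims2 gave -0.20 ± 0.10 for Step2 against Con (adjusted p = 0.659, 95% interval -0.41 to 0.01) and -0.12 ± 0.09 for Step1 against Con (adjusted p = 0.803). Both values moved with the Con library left out. Without Con replicate 2 Rims2 gave -0.06 for Step2 against Con and 0.02 for Step1 against Con, and without Con replicate 1 it gave -0.34 and -0.27. Con replicate 2 held the stack of 23 reads shown above and another Rims2 position with 18 reads. Without positions of at least 10 reads its level was 215 CPM. With 1 read per position the log2 fold changes of Rims2 were -0.17 for Step2 and -0.13 for Step1 against Con.

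The ELKS genes Erc1 and Erc2 encode scaffolds that bind RIM proteins. Erc1 held 150 and 167 reads in Step2, 261 and 216 in Step1, and 253 and 276 in Con, or 103 and 118 CPM in Step2, 114 and 111 CPM in Step1, and 115 and 126 CPM in Con. Step1 lay just below Con and Step2 overlapped both. The log2 fold changes were -0.13 ± 0.13 for Step2 against Con (limma adjusted p = 0.848) and -0.09 ± 0.12 for Step1 against Con (adjusted p = 0.900). Leaving out single libraries moved the first from -0.23 (without Step2 replicate 2) to -0.03 (without Step2 replicate 1), and the second from -0.16 (without Con replicate 1) to -0.02 (without Con replicate 2). By sequencing run, Step2 against Con was -0.03 in the first and -0.22 in the second, and with 1 read per position Step1 against Con was -0.04. Erc2 held 447 and 520 reads in Step2, 762 and 674 in Step1, and 828 and 821 in Con. That made 306 and 367 CPM in Step2, 334 and 347 CPM in Step1, and 376 CPM in each Con library. Both Con libraries lay above the other 4, and the Step2 replicates were farther apart than those of the other groups. The distance from Con partly came from stacks. Without positions of at least 10 reads Erc2 had 306.4 and 350.6 CPM in Step2 and 334 and 342 CPM in Step1. Each Con library then had 351.7 CPM, only just above Step2 replicate 2. Erc2 had the smallest unadjusted p of the 10 for Step2 against Con, with a log2 fold change of -0.17 ± 0.07 (95% interval -0.31 to -0.02, adjusted p = 0.589), and it gave -0.15 ± 0.06 for Step1 against Con (95% interval -0.27 to -0.02, adjusted p = 0.650). Leaving out Step2 replicate 1 took the Step2 against Con value to -0.03, and leaving out Step2 replicate 2 took it to -0.29. With 1 read per position Erc2 gave -0.13 for Step2 against Con and -0.12 for Step1 against Con.

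Bassoon and Piccolo, the products of Bsn and Pclo, are the giant scaffolds of the active zone. Pclo held 175 and 184 reads in Step2, 297 and 248 in Step1, and 335 and 308 in Con, which were 120.0 and 129.8 CPM in Step2, 130.2 and 128 CPM in Step1, and 152 and 141 CPM in Con. Con lay above the other 4 libraries. For Step2 against Con the log2 fold change was -0.23 ± 0.12, the lowest of the 10 (95% interval -0.47 to 0.01, limma adjusted p = 0.659), and for Step1 against Con it was -0.18 ± 0.11 (adjusted p = 0.746). With 1 read per position Pclo gave -0.30 ± 0.11 for Step2 (adjusted p = 0.367) and -0.26 ± 0.09 for Step1 (adjusted p = 0.386), but the Step2 value differed between sequencing runs, at -0.08 in the first and -0.39 in the second. Bsn held 41 reads in each Step2 library, 67 and 73 in Step1 and 70 in each Con library. The levels were 28.1 and 28.9 CPM in Step2, 29.4 and 37.6 CPM in Step1, and 31.8 and 32.1 CPM in Con. Step2 lay below both other groups, and Step1 spanned Con. With so few reads the fit was wide: -0.16 ± 0.25 for Step2 against Con (adjusted p = 0.912) and 0.05 ± 0.22 for Step1 against Con (adjusted p = 0.971). By run, Step2 against Con was -0.03 in the first and -0.23 in the second.

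The Munc13 genes Unc13a, Unc13b and Unc13c encode the vesicle priming factors. Unc13a held 28 reads in each Step2 library, 40 and 64 in Step1, and 38 and 47 in Con, or 19.2 and 19.7 CPM in Step2, 17.5 and 33.0 CPM in Step1, and 17.2 and 21.5 CPM in Con. Step1 replicate 2 stood above the other 5 libraries, whose values overlapped. It is the library with the stack of 18 reads shown above, and without that position it held 46 reads, or 23.7 CPM. The log2 fold change for Step1 against Con was 0.28 ± 0.28, the highest of the 10 (95% interval -0.28 to 0.85, limma adjusted p = 0.869), and it was -0.13 without Step1 replicate 2 and 0.08 with 1 read per position. For Step2 against Con it was 0.02 ± 0.32 (95% interval -0.63 to 0.68, adjusted p = 0.990), an interval too wide to call the groups alike. Unc13b had 74.7 and 79.7 CPM in Step2, 72.8 and 82.4 CPM in Step1, and 75.8 and 83.4 CPM in Con, and all 3 groups overlapped. Unc13c had 183 and 188 CPM in Step2, 172 and 191 CPM in Step1, and 191 and 184 CPM in Con, again with overlap throughout. Against Con, Unc13b gave -0.04 ± 0.16 for Step2 (adjusted p = 0.969) and -0.04 ± 0.14 for Step1 (adjusted p = 0.960), and Unc13c gave -0.01 ± 0.10 for Step2 (adjusted p = 0.980) and -0.06 ± 0.09 for Step1 (adjusted p = 0.920).

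Ppfia2, which encodes liprin-α2, a scaffold linked to RIM and ELKS proteins, held 263 and 288 reads in Step2, 413 and 342 in Step1, and 424 and 422 in Con. Its levels were 180.3 and 203 CPM in Step2, 181 and 176 CPM in Step1, and 192 and 193 CPM in Con. Step1 lay below Con, and Step2 spanned it. The log2 fold changes were -0.01 ± 0.10 for Step2 against Con (limma adjusted p = 0.984) and -0.11 ± 0.09 for Step1 against Con (adjusted p = 0.830). With 1 read per position Ppfia2 gave nearly the same value in both, -0.11 for Step2 and -0.13 for Step1. Between Step2 and Step1 the 10 genes ran from -0.26 in Unc13a to 0.10 in Ppfia2, and the limma adjusted p was 0.999 for each of them. With 1 read per position they ran from -0.15 to 0.03, with -0.12 in Unc13a and 0.02 in Ppfia2.

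**Figure D4:**
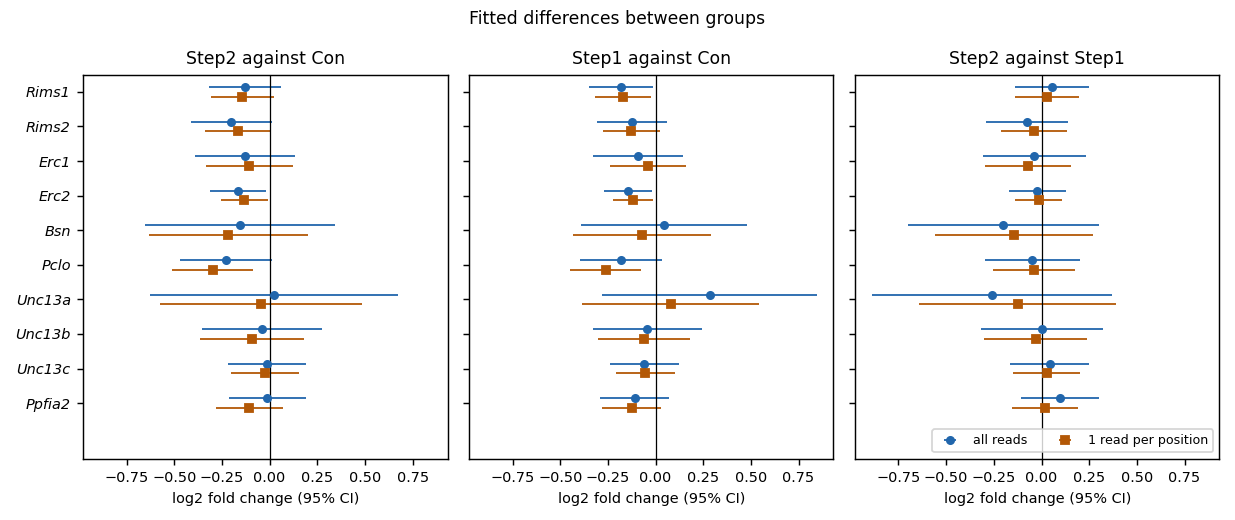
Log2 fold change with 95% interval (horizontal) of each of the 10 genes (rows) for Step2 against Con, Step1 against Con and Step2 against Step1, from all reads (circles) and from 1 read per position (squares). Intervals are widest for Bsn and Unc13a, the genes with the fewest reads, and no value was called.

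Other genes of presynaptic release were described from a list of 40, of which 37 could be tested. None was called, with 5 at an unadjusted p under 0.05 in limma for Step2 against Con, 6 for Step1 against Con and 2 for Step2 against Step1. These are 13.5%, 16.2% and 5.41% of the list, beside 7.77%, 7.08% and 3.42% of all tested genes and 23.1%, 20.6% and 4.59% of genes over 300 kb. Fitted values below 0 numbered 29 of 37 for Step2 against Con with a median of -0.18, 29 of 37 for Step1 against Con with a median of -0.17, and 20 of 37 for Step2 against Step1 with a median of -0.05. As shares these are 78.4%, 78.4% and 54.1%, beside 54.0%, 54.7% and 50.2% of all tested genes and 74.4%, 73.7% and 56.8% of genes over 300 kb. Most genes of the list are shorter than 300 kb, with lengths from 12569 bases in Cplx2 to 2270724 bases in Ptprd. Genes over 300 kb are thus not matched to the list in length, and the part of length in its values was not tested. By smallest p, Syt1, a calcium sensor of vesicle fusion, stood first for Step2 against Con. It had 202 and 201 CPM in Step2, 256 and 217 CPM in Step1, and 238 and 279.8 CPM in Con, so that Step2 lay below the other 4 libraries, with a log2 fold change against Con of -0.35 ± 0.10 (limma adjusted p = 0.255, and 0.0917 with 1 read per position). Cacna1a, which encodes the pore of P/Q-type calcium channels at release sites, followed with 75.4 and 75.5 CPM in Step2, 87.3 and 83.9 CPM in Step1, and 100.3 and 102 CPM in Con. Its groups did not overlap, and Step2 against Con gave -0.42 ± 0.15 (adjusted p = 0.475, and 0.0917 with 1 read per position). For Step1 against Con the list was led by Apba1, an adaptor that binds Munc18 proteins, with -0.43 ± 0.15 (adjusted p = 0.545, and 0.124 with 1 read per position), and by Stxbp5l, a tomosyn that binds syntaxin, with -0.31 ± 0.13 (adjusted p = 0.604), which was -0.18 with 1 read per position (adjusted p = 0.688). For Step2 against Step1 Syt1 gave -0.23 ± 0.10 and Sv2b, a vesicle glycoprotein, 0.34 ± 0.15 (adjusted p = 0.999 for both), and with 1 read per position they gave -0.20 and 0.16 (adjusted p = 0.980 for both).

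Pooled over the 10 genes, reads were spread over the whole gene body. Cutting each gene into 10 equal parts from start to end, a part held between 7.92% and 13.3% of a library's reads in these genes. The 13.3% was the third part in Con replicate 2, which includes the Erc2 position with 33 reads and another Erc2 position with 18 reads of that library. Single genes were less even. The fifth part of Unc13a held 43.8% of its reads in Step1 replicate 2 and 39.3% in Step2 replicate 1, but 10% in Step1 replicate 1. That of Rims2 held 19.6% in Con replicate 2, and it includes the Rims2 positions with 23 and 18 reads of that library. Parts were not scaled to known bases, which are 486.4 of the 519.7 kb of Rims1.

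**Figure D5:**
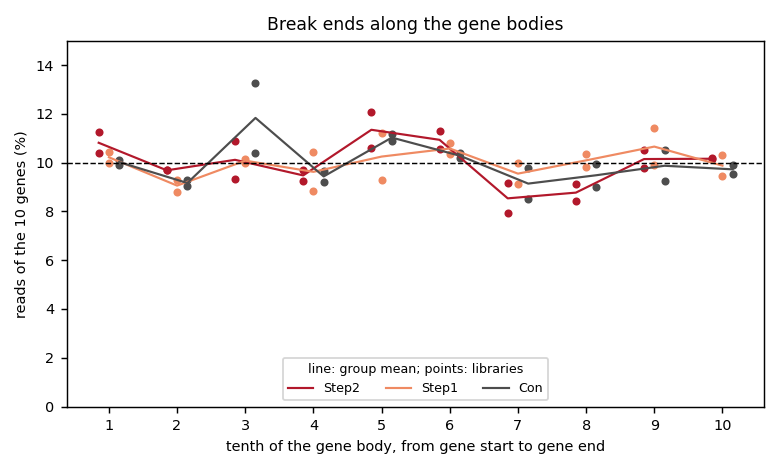
Share of a library's reads in the 10 genes (vertical, %) in each of 10 equal parts of the gene body, from gene start to gene end (horizontal); points are libraries, lines are group means of 2, and the dashed line marks equal shares. All values lie between 7.92% and 13.3%, with Con replicate 2 highest in the third part.

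In 100 kb windows, 28 lay wholly inside a gene of the set. Their mean level over the 6 libraries ran from 33.0 to 48.8 CPM with a median of 39.4 CPM, beside a median of 39.8 CPM over all fully known windows, of which the 5th and 95th percentiles were 30.2 and 47.7 CPM. Counting windows that touch a gene of the set at all, 48 were tested, and limma called none in any comparison. The background was 0.0906% of all windows for Step2 against Con, 0.0158% for Step1 against Con and 0.0433% for Step2 against Step1. An unadjusted p under 0.05 was reached by 3, 4 and 1 of the 48 in these comparisons, or 6.25%, 8.33% and 2.08%, beside 8.25%, 7.27% and 4.29% of all windows.

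The windows with the smallest p were at Rims1, Erc2, Erc1 and Pclo. At the 3′ end of Rims1, chr1:22200001-22300000, of which only 13.75 kb lie in the gene, held 53 and 62 reads in Step2, 92 and 99 in Step1, and 60 and 58 in Con. That was 36.3 and 43.7 CPM in Step2, 40.3 and 51.0 CPM in Step1, and 27.2 and 26.6 CPM in Con, so that both other groups lay above Con. The log2 fold change was 0.57 ± 0.23 for Step2 against Con (limma adjusted p = 0.464) and 0.75 ± 0.22 for Step1 against Con (adjusted p = 0.373). Inside Rims1, chr1:22600001-22700000 held 55 and 49 reads in Step2, 94 and 78 in Step1, and 115 and 108 in Con, and gave -0.48 ± 0.22 for Step2 against Con (adjusted p = 0.548). In Erc2, chr14:27800001-27900000 held 55 and 83 reads in Step2, 89 and 68 in Step1, and 112 and 143 in Con. Its log2 fold change for Step1 against Con was -0.63 ± 0.21 (adjusted p = 0.494), and -0.38 with 1 read per position. This window holds the Erc2 positions with 33 and 18 reads of Con replicate 2, and leaving out Con replicate 1 gave -0.82 with an adjusted p of 0.0273. In Erc1, chr6:119600001-119700000 gave -0.50 ± 0.25 for Step2 against Step1, and in Pclo chr5:14800001-14900000 gave -0.46 ± 0.25 (adjusted p = 0.999 for both).

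Over the 10 genes together, exons took a slightly larger share of the reads than of the bases, but single genes differed. Exons held 744 of 17366 reads, or 4.28% (Wilson 95% interval 3.99% to 4.60%), beside 3.65% of the bases of the 10 genes. By group the share was 4.09% in Step2, 4.25% in Step1 and 4.43% in Con, and the libraries ran from 3.93% to 4.92%, both of them Con libraries, so the groups did not separate. Unc13a had 31.4% of its reads in exons beside 26.7% of its bases, but 26.0% without its stack of 18 exonic reads, and Bsn had 17.4% beside 16.9%. In Erc2 the share was 2.17% (1.77% to 2.67%) beside 1.14% of bases, in Rims1 2.26% (1.74% to 2.94%) beside 1.51%, and in Unc13c 2.78% (2.16% to 3.57%) beside 1.80%. Rims2 had 2.89% (2.28% to 3.66%) beside 2.14%. Erc1 lay on the other side, with 4.54% (3.54% to 5.79%) beside 5.87% of bases, and with 4.66% (3.64% to 5.95%) without its positions of at least 10 reads. In Pclo, Unc13b and Ppfia2 the interval held the share of bases, as it did in Unc13a (25.9% to 37.5%) and Bsn (13.8% to 21.6%). Only small parts of 2 of the genes are shared with other protein-coding genes, 1.05% of Unc13a with Colgalt1 and 0.523% of Ppfia2 with Acss3.

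Around the gene starts, from 1 kb before to 1 kb after, the 10 genes together held 135 reads. Summed over the genes, these were 4.80 and 16.9 CPM in Step2, 10.1 and 15.5 CPM in Step1, and 8.62 and 14.7 CPM in Con, and all 3 groups overlapped. The mean density there was 0.588 CPM per kb, beside 0.391 over the genome. Starts of other genes were not counted, so it is not known if this is particular to the 10. Pclo had 25 reads around its start, at 17 distinct positions counted library by library, and 2.91 times the density of its body. Rims1 had 20 and Erc1 19, while Rims2 had 6, or 0.646 times the density of its body. At these counts the starts of single genes could not be compared between groups.

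The bases at the break ends were uneven, in the same way in every library. Over the 14336 distinct ends, the base just before the end was T in 45.1% (40.8% to 49.9% over the 6 libraries), whereas T is 30.1% of the bases of these genes counted over both strands. The first base of the read was G in 32.3% (30.1% to 34.3% over the libraries), beside 19.9% of the bases. The base before the end was seldom G (12.9%) or C (12.2%). Ends lay in masked repeats in 22.9%, beside 28.7% of the bases of the genes, and the GC content of the 101 bases around an end averaged 38.9%, beside 39.9% for the genes as a whole. In the sequences of the stacks printed above, the base before the capitals was T in both Erc2 sequences and in the Rims2 sequence, and C in the Unc13a sequence.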

How the data were processed

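The deposited files list aligned reads, 1 per line, with interval, strand and a mapping quality score of 11 to 42. The submitters' processing notes and design text name removal of duplicates by molecular identifier, alignment to mm10 with Bowtie2, and SAMtools and bedtools, without versions. Here the 5′ end of every read was counted in GENCODE M21 gene bodies and in 100 kb windows on chromosomes 1 to 19 and X, with all reads and with 1 read per position and strand. Library size was the reads on these chromosomes outside 26 windows of 10 kb holding over 20 times the median of 45.0 reads; no such window touched the 10 genes. limma 3.58.1 (voom, R 4.3.3) was run on features that reached 10 reads in 2 or more libraries, with a mean for each group and all 6 libraries in 1 model. Tests were two-sided, p-values were adjusted by Benjamini-Hochberg over all genes or all windows, and the threshold was 0.05. CPM, SDs, intervals and exact permutation tests were computed in Python 3.11.15 with SciPy 1.17.1. The fit was tested on simulated data. The members and lists were chosen with earlier results of these data known. All 10 genes are described; from the list of release genes and from the windows, the text names any that were called and otherwise the 2 with the smallest p per comparison, and it gives the 3 positions with the most reads. Sequences were read from RefSeq's GRCm38.p6, the same build as mm10. The alternatives tried are listed in the closing section.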

Additional observations from a re-analysis of the deposited data

How the results depend on the processing

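None of the 10 genes was called under any alternative: 1 read per position, mapping quality of at least 30, scaling by the median of ratios, no minimum of reads, a replicate block, a GC smooth, each sequencing run alone, and each library left out. Over 420 fitted values of single genes under these alternatives 380 kept their sign, but many of them had little room to change. Leaving out a library of the group outside a comparison left the value nearly as it was, and so did lifting the minimum of reads. Rims1 for Step2 against Con was -0.12836 without either Step1 library, -0.128353 without the minimum and -0.128359 in the main fit. Deviations of replicates were hardly correlated between groups (correlations between -0.0051 and 0.0327 over genes). Counting error lowers such correlations, so they cannot exclude a pairing by replicate number. With the replicate block 0 genes of the set were called, and the smallest adjusted p was 0.466 for Step2 against Con. Over all genes, 43 were called for Step2 against Con with the block and 13 without it. The block turned the sign of Unc13b only, for Step2 against Step1 (-0.0032). Scaling by the median of ratios moved all 10 genes up, by 0.047 to 0.049 for Step2 against Con and by 0.035 to 0.038 for Step1 against Con. The cause of the other sign changes, which follow, was not tested. For Step2 against Con, 1 read per position gave -0.046 for Unc13a; the first run gave 0.038 for Unc13b; the second run gave -0.46 for Unc13a, 0.079 for Unc13c and 8.8e-05 for Ppfia2; the median of ratios gave 0.0072 for Unc13b, 0.034 for Unc13c and 0.037 for Ppfia2; mapping quality gave 0.0010 for Unc13c, and the GC smooth 0.014 for Ppfia2. For Step1 against Con, Bsn was -0.070 with 1 read per position and -0.0072 in the second run, Unc13a was -0.056 in the second run, and Unc13b was 0.046 in the first. For Step2 against Step1, the first run gave 0.093 for Erc1, 0.16 for Pclo, -0.0075 for Unc13b and -0.12 for Unc13c, and 1 read per position gave -0.031 for Unc13b. The summed level for Step2 against Step1 was 0.021 in the first run and 0.0031 with the median of ratios. For Step1 against Con it was -0.077 with the median of ratios and -0.11 as reported.

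Leaving out each library in turn, the summed level ran from -0.18 to -0.061 for Step2 against Con, from -0.14 to -0.088 for Step1 against Con and from -0.068 to 0.053 for Step2 against Step1. For Step2 against Con single genes whose sign turned ran from -0.13 to 0.18 (Unc13a), -0.11 to 0.028 (Unc13b), -0.041 to 0.013 (Unc13c) and -0.096 to 0.076 (Ppfia2). For Step1 against Con they ran from -0.27 to 0.0195 (Rims2), -0.12 to 0.24 (Bsn), -0.13 to 0.77 (Unc13a), -0.13 to 0.053 (Unc13b) and -0.13 to 0.023 (Unc13c). For Step2 against Step1 they ran from -0.13 to 0.062 (Erc1), -0.15 to 0.11 (Erc2), -0.10 to 0.0092 (Pclo), -0.75 to 0.16 (Unc13a), -0.093 to 0.086 (Unc13b) and -0.037 to 0.11 (Unc13c). Windows called for Step1 against Con ran from 0 to 1, the 1 being the Erc2 window without Con replicate 1. Without the 15 positions of at least 10 reads, an alternative chosen after seeing the data, the summed level gave -0.10 for Step2 against Con and -0.084 for Step1 against Con. Depth limits Unc13a and Bsn most, with 28 to 73 reads per library.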

Other observations

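Beside the stacks already described, 2 pairs of positions with at least 10 reads lay within 200 bases of each other and came from different groups, as seen after the data were examined. In an intron of Erc1, chr6:119747013 on the plus strand held 15 reads, 13 of them from Step2 replicate 1, and 191 bases away chr6:119747204 on the minus strand held 20 reads, 19 of them from Con replicate 2. In Erc2, chr14:28082852 held 10 reads of Step2 replicate 2, 78 bases from the position with 27 reads whose sequence is given above. Whether such neighbours are more frequent than in other long genes was not tested.

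Reads on the coding strand were 48.9% of all reads in the 10 genes (Wilson 95% interval 48.1% to 49.6%), and libraries ran from 46.8% to 51.0%. With each position counted once the share was 49.2%. Single genes strayed farther within groups, and in both directions. For 8 of the 30 pairs of gene and group the interval left out 50%. Above it lay Rims1 in Step2, with 58.3% of 585 reads (54.3% to 62.2%), and Erc1 in Con, with 57.8% of 529 reads (53.6% to 62.0%). Below it lay Erc1 (44.2%) in Step2, Unc13b (40.2%) and Unc13a (39.4%) in Step1, and Erc2 (45.2%), Pclo (43.4%) and Unc13c (45.4%) in Con. These intervals take every read as independent, although all reads of a stack share a strand. Off the coding strand lay the 18 reads of Unc13a in Step1 and 13 reads of Step2 replicate 1 at a position of Erc1. So did stacks of 33 and 18 reads of Con replicate 2 and of 26 reads of Con replicate 1 in Erc2. On the coding strand lay 19 reads of Con replicate 2 at a position of Erc1. No read at a position of at least 10 reads lay in Rims1 in Step2, Unc13b in Step1, or Pclo and Unc13c in Con. The shares of these pairs thus do not rest on such stacks, though smaller repeats also share a strand. For the remaining pairs, strand shares without the stacks were not computed. The 8 pairs by themselves do not show a strand bias. Differences between groups were not tested.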
